A study of Mus musculus with 48 samples.

Results

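The effect of a hindlimb cast on the tibia of NOD/ShiLtJ mice was read from 6 of the 48 libraries of the series, which were chosen by their strain and limb labels alone. They come from 3 male mice, numbered 4, 5 and 6, aged 19 weeks. In each animal the left hindlimb had been held in a cast for 3 weeks (immobilized) and the right hindlimb of the same animal was left free (control). NOD/ShiLtJ is an inbred strain that carries no transgene in the labels and is known for spontaneous autoimmune diabetes. Its glycaemic state was not analysed here.

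RNA was taken from the tibial metaphysis, the flared bone region next to the growth plate, and read counts per gene were deposited. The other 7 strains of the series (WSB/EiJ, PWK/PhJ, C57BL/6J, NZO/HlLtJ, 129S1/SvImJ, CAST/EiJ and A/J), treated in the same way at the same age, gave 38 further libraries, with 3 pairs of limbs per strain but 1 pair in A/J. The cast was on the left limb in every mouse, so side and cast cannot be told apart. The control limb belonged to an animal that wore a cast and is not the limb of an untouched mouse.

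Bone is built by osteoblasts, which secrete type I collagen and mineralize it, and some of these cells become osteocytes, the cells held in the matrix that sense load. Osteoclasts, which are fused cells of the marrow's myeloid lineage, dissolve bone with acid and proteases under the control of the cytokine RANKL. Unloading of a limb is known to lower bone mass, and in muscle it is known to cause atrophy. A metaphyseal sample also holds marrow, cartilage and whatever muscle stays attached.

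The 3 immobilized libraries held 12959552, 6312336 and 6613772 counts in mice 4, 5 and 6, and the 3 control libraries held 6975384, 7941241 and 10642046. Depth was higher in the immobilized limb of mouse 4 and in the control limb of mice 5 and 6. An exact sign-flip permutation test of depth over the 3 mice (2-sided p = 1) cannot go below a p of 0.25 and so could not show a difference. Counts of 38 skeletal muscle genes made up 0.408%, 1.34% and 0.452% of the immobilized libraries and 9.03%, 2.45% and 3.51% of the control libraries, so every control limb was above every immobilized limb. Globin genes took 3.66%, 3.35% and 2.66% of the counts in immobilized limbs and 3.86%, 6.13% and 4.83% in control limbs. Mitochondrially encoded genes took 4.26%, 4.72% and 3.48% in immobilized limbs and 11.2%, 4.35% and 9.17% in control limbs. The 10 most abundant genes took 29.0% of the counts in the immobilized limb of mouse 6, against 12.3% to 18.0% in the other 5 libraries. Defining markers of bone-forming cells (Col1a1, Ibsp, Alpl) and osteoclasts (Ctsk, Acp5) were detected in all 6 libraries.

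Across the 16882 genes tested, 937 rose and 470 fell in the immobilized limb at a false discovery rate (FDR) of 0.05, which is 5.55% and 2.78% of the genes and 8.33% together. The test was edgeR's quasi-likelihood F test with a term per mouse, and the adjusted p-values given throughout are its Benjamini-Hochberg values over all 16882 genes. Changes are given as log2 of immobilized over control, so that 1 unit is 2-fold, with their standard errors (SE) for 3 pairs, whose spread is estimated over all strains, and levels are in CPM, counts scaled to a common library size, which do not correct for gene length. Of the 1407 genes called, 1403 moved the same way in all 3 mice, and 502 rose and 223 fell by at least 2-fold. In 1362 of them the 3 limbs of a group did not overlap those of the other. Among all genes tested, 16% had every immobilized limb above every control limb and 14.9% had the opposite. The median change over all genes was -0.03.

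The count of called genes depended on 2 of the 3 mice. It was 0 without mouse 4 (edgeR, with 3225 genes at an unadjusted p under 0.05) and 2 without mouse 6, against 1125 without mouse 5. Without mouse 4, 1404 of the 1407 genes kept their direction. This was largely fixed beforehand, because 1403 of them had moved the same way in all 3 mice. Some calls named below were also lost without single mice of other strains. Of 22 fits that each left out 1 mouse, Col1a1 and Runx2 were called in 20. Myh2 was called in 6, Apcdd1 in 7, Col6a1 in 8, Mertk and Nr4a1 in 9 and Ccl9 in 11.

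**Figure D1:**
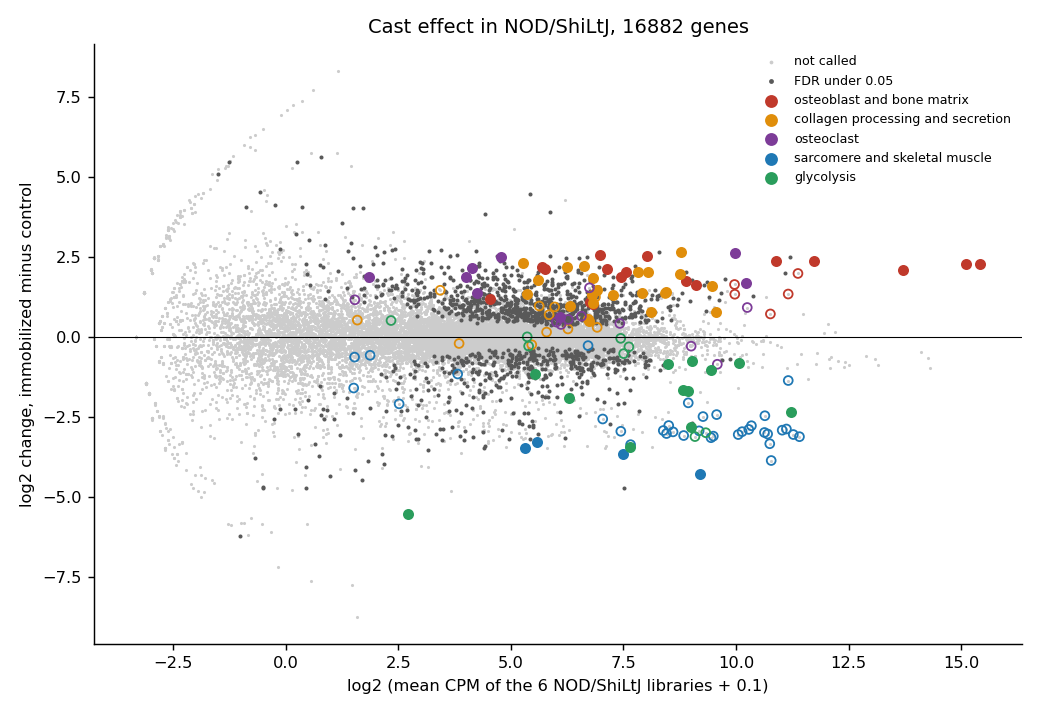
Cast effect in NOD/ShiLtJ mice. Each point is a gene, with the log2 of its mean CPM over 6 libraries (plus 0.1) on the x axis and its log2 change between limbs on the y axis. Filled coloured points are list members called at an FDR of 0.05 and open ones are members that were not. Called osteoblast, collagen processing and osteoclast genes lie above 0 and called glycolysis and muscle genes lie below it.

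Genes of bone-forming cells were higher in the immobilized limb. Of 22 genes of the osteoblast and bone matrix list, 16 rose and 0 fell, against 5.55% and 2.78% of all genes, and the list's median log2 change was 2.01 against -0.03 over all genes. All 22 had every immobilized limb above every control limb, against 16% of all genes. The mean log2 CPM of the list differed between limbs by 2.04, 1.23 and 2.21 in mice 4, 5 and 6.

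Col1a1 (chr11:94936224-94953042), which encodes a chain of type I collagen, was at 43636, 21644 and 113124 CPM in the immobilized limbs of mice 4, 5 and 6 and at 6347, 10240 and 15375 CPM in their control limbs. It rose by 2.26 ± 0.58 (SE), adjusted p 0.0255. The lowest immobilized limb, that of mouse 5, lay above the highest control limb, that of mouse 6. Its partner chain Col1a2 was at 58240, 28399 and 136624 CPM against 7760, 13048 and 19856 CPM and rose by 2.29 ± 0.58 (SE), adjusted p 0.0241. Ibsp, bone sialoprotein, was at 4590, 2531 and 2378 CPM against 786, 399 and 637 CPM, without overlap of the groups, and rose by 2.37 ± 0.64 (SE), adjusted p 0.033. Sparc, the collagen-binding matrix protein osteonectin, was at 18504, 10588 and 36684 CPM against 3576, 4552 and 5993 CPM and rose by 2.07 ± 0.48 (SE), adjusted p 0.0162. For all 4 matrix genes the difference within each mouse had the same sign. Alpl, the alkaline phosphatase of mineralizing cells, was at 722, 579.9 and 1226 CPM against 273, 255 and 259 CPM and rose by 1.61 ± 0.39 (SE), adjusted p 0.0202.

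Runx2 and Sp7, transcription factors of the lineage, rose as well. Runx2 (chr17:44495987-44814797), which is required for osteoblast formation, was at 155, 113 and 175 CPM in immobilized limbs and at 68.4, 67 and 70.6 CPM in control limbs, and it rose by 1.08 ± 0.25 (SE), adjusted p 0.0158. Its control values lay within a few CPM of each other, and all immobilized values lay above them. Sp7, osterix, which acts after Runx2, was at 249, 185 and 397 CPM against 61.1, 73.7 and 86.5 CPM and rose by 1.85 ± 0.40 (SE), adjusted p 0.0117. In both genes mouse 6 had the highest immobilized value and mouse 5 the lowest. Kazald1 and Cthrc1, which encode secreted proteins of bone-forming tissue, rose by 2.10 (adjusted p 0.00956) and 2.56 (adjusted p 0.0131). Bglap, osteocalcin, was at 1875, 1458 and 10137 CPM against 447, 935 and 1097 CPM, a change of 1.98 ± 0.62 (SE), adjusted p 0.0558, which missed the threshold. Bglap has near-identical neighbouring copies, between which reads may have been split. Spp1, osteopontin, at a change of 1.34 ± 0.41 (SE), adjusted p 0.0537, missed it as well.

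Reference promoter windows, 300 bases from 250 before to 50 after a start site, are shown here for a matrix gene and a mineralization gene that rose, Sparc (chr11:55420031-55420330, minus strand) and Dmp1 (chr5:104202367-104202666, plus strand), from RefSeq on GRCm38.p6. Both are written 5′ to 3′ on the gene's strand, and capitals mark a match to the RUNX core TGTGGT, searched on both strands, which here reads ACCACA. Dmp1 has a further window in the table, at chr5:104197325-104197624, with 0 matches.
Sparc: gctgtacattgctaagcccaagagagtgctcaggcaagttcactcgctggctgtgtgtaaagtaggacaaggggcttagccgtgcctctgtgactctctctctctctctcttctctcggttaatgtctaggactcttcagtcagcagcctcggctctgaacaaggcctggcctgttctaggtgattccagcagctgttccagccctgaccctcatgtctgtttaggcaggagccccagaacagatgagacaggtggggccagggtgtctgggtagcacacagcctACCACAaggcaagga
Dmp1: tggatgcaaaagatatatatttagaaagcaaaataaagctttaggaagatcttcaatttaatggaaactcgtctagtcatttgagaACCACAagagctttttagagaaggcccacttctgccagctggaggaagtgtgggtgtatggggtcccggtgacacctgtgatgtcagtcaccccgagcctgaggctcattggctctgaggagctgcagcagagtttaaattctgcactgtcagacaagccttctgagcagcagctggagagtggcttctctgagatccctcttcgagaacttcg
The core occurred in 5 of 16 windows of osteoblast-list genes (12 of 22 genes matched the table), in 3 of 12 windows of osteocyte-list genes (11 of 12 matched) and in 16.8% of all 32851 windows. Among windows of all genes called higher the share was 10.4%, against 13.5% for all genes tested. These are counts of letters in the reference sequence, which derives from C57BL/6J and not from NOD/ShiLtJ.

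The machinery that folds, modifies and exports collagen showed the same direction. Of 34 genes of the collagen processing and secretion list, 22 rose and 0 fell, against 5.55% and 2.78% of all genes. The median log2 change was 1.32, and 29 had all immobilized limbs above all control limbs, against 16% of all genes. Bmp1, the protease that removes the C-propeptide of procollagen, was at 603, 402 and 1100 CPM against 152, 154 and 197 CPM and rose by 1.95 ± 0.34 (SE), adjusted p 0.00785. Adamts2, which removes the N-propeptide, was at 277, 216 and 584 CPM against 113, 127 and 138 CPM and rose by 1.38 ± 0.25 (SE), adjusted p 0.00785. Every immobilized limb was above every control limb for both proteases. Crtap, a subunit of the complex that hydroxylates collagen prolines, was at 166, 113 and 202 CPM against 64.8, 60.4 and 62.5 CPM and rose by 1.32 ± 0.24 (SE), adjusted p 0.00785. Kdelr2, a receptor that returns chaperones to the endoplasmic reticulum, was at 225, 159 and 280.1 CPM against 74.2, 89.3 and 97.1 CPM and rose by 1.32 ± 0.23 (SE), adjusted p 0.00785. Serpinh1, the collagen chaperone HSP47, rose by 1.57 (adjusted p 0.0342), and Lox, which crosslinks collagen, rose by 2.66 (adjusted p 0.0132). P4hb, a subunit of prolyl 4-hydroxylase and a general disulfide isomerase, rose by 0.76 (adjusted p 0.0164). The unfolded protein response list of 20 genes, which covers stress in the same compartment, had 0 higher and 1 lower, with a median of 0.16.

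Muscle-gene counts were lower in the immobilized limbs, as given above. With the mean level of the muscle list added to the model as a covariate, 7.4% of all genes were called, 5.97% higher and 1.43% lower, and 20 of 22 osteoblast genes and 24 of 34 collagen processing genes were called higher, at medians of 2.29 and 1.59. The muscle list was lower in the immobilized limb of every NOD/ShiLtJ mouse, so covariate and limb ran together in this strain. The model fits a single slope over all strains, so values given with the covariate rest in part on the other strains.

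Osteocyte genes were also higher. Of 12 osteocyte genes 6 rose and 0 fell, against 5.55% and 2.78% of all genes, with a median log2 change of 1.42. The list's mean level differed between limbs by 0.88, 1.33 and 1.78 in mice 4, 5 and 6. Phex, an endopeptidase needed for phosphate balance and mineralization, was at 364, 296 and 712 CPM against 47.7, 80.1 and 117 CPM and rose by 2.47 ± 0.50 (SE), adjusted p 0.00913. Dmp1, a matrix protein of osteocytes, was at 1027, 691 and 1324 CPM against 272, 254 and 375 CPM and rose by 1.73 ± 0.48 (SE), adjusted p 0.0365. Neither gene overlapped between the groups. Dkk1, a secreted antagonist of Wnt signalling, was at 38.1, 37.3 and 61.2 CPM against 11.9, 10.5 and 16.7 CPM and rose by 1.79 ± 0.48 (SE), adjusted p 0.0306. Irx5, a homeobox factor, rose by 1.34 (adjusted p 0.029) and Ptprz1, a receptor phosphatase, by 2.02 (adjusted p 0.0328). Sost (chr11:101962458-101967015), which encodes the Wnt inhibitor sclerostin of mature osteocytes, was at 46.8, 174 and 289 CPM in immobilized limbs and at 86.4, 20.4 and 59.96 CPM in control limbs. The limbs of mouse 4 differed in the opposite direction to those of mice 5 and 6, and the change of 1.58 ± 0.82 (SE), adjusted p 0.253 did not pass the test. Mepe, another gene of mature osteocytes, went the same 2 ways, at 184, 428 and 415 CPM against 205, 92 and 169 CPM (adjusted p 0.315).

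**Figure D2:**
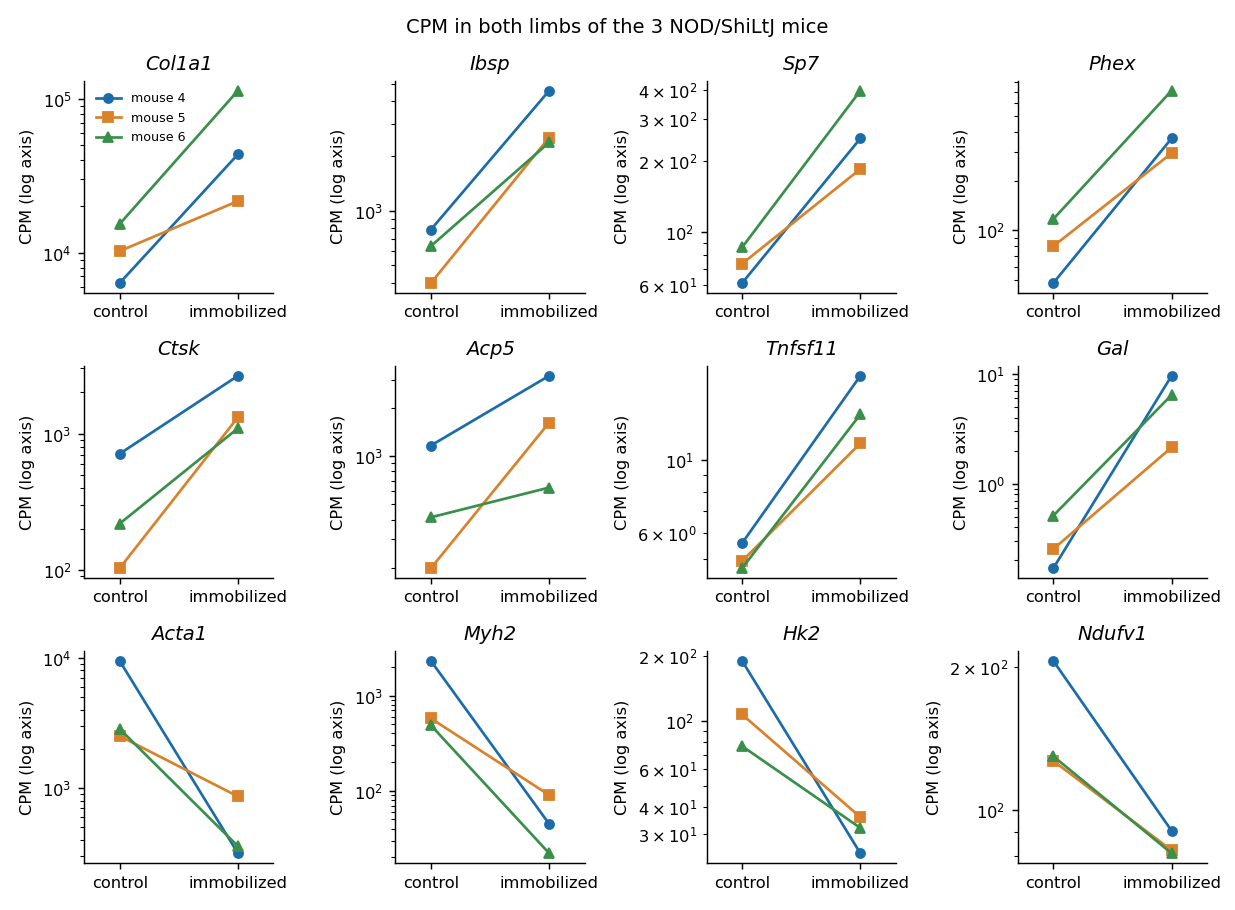
CPM (log axis) of 12 genes in the control and immobilized limbs of NOD/ShiLtJ mice 4, 5 and 6, 1 line per mouse. All 3 lines go up for Col1a1, Ibsp, Sp7, Phex, Ctsk, Acp5, Tnfsf11 and Gal and down for Acta1, Myh2, Hk2 and Ndufv1, of which Acta1 did not pass the test.

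Osteoclast genes rose in part. Of 18 genes 8 rose and 0 fell, against 5.55% and 2.78% of all genes, with a median log2 change of 1.03. Of the 18, 7 had every immobilized limb above every control limb, against 16% of all genes. The list's mean level differed by 1.32 and 1.48 in mice 4 and 5 and by 0.38 in mouse 6. Ctsk (chr3:95499256-95509362), cathepsin K, the protease that degrades bone collagen, was at 2647, 1316 and 1092 CPM against 711, 103 and 219 CPM and rose by 2.62 ± 0.58 (SE), adjusted p 0.0138. Its lowest immobilized value, in mouse 6, lay above its highest control value, in mouse 4. Acp5, the tartrate-resistant acid phosphatase, was at 3182, 1620 and 634 CPM against 1163, 198 and 413 CPM and rose by 1.69 ± 0.48 (SE), adjusted p 0.0395, although the immobilized limb of mouse 6 lay below the control limb of mouse 4. Ocstamp and Dcstamp encode membrane proteins needed for the fusion of osteoclast precursors. Ocstamp was at 51.1, 21.5 and 13.7 CPM against 10.4, 3.93 and 4.3 CPM and rose by 2.15 ± 0.39 (SE), adjusted p 0.00785. Dcstamp was at 81.4, 38.5 and 18.2 CPM against 16.1, 3.04 and 6.04 CPM and rose by 2.48 ± 0.46 (SE), adjusted p 0.00791. Clcn7, a chloride-proton exchanger of the resorbing membrane, rose by 0.61 (adjusted p 0.0278). Mmp9, a gelatinase of osteoclasts and neutrophils, changed by 0.91 ± 0.30 (SE), adjusted p 0.0695, and Nfatc1, the transcription factor of osteoclast formation, by 0.64 ± 0.20 (SE), adjusted p 0.0592; both missed the threshold.

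Of 11 osteoclast regulators 1 rose, which was Tnfsf11, and 0 fell, against 5.55% and 2.78% of all genes, with a median of 0.70. Tnfsf11 (chr14:78277445-78308043), RANKL, was at 17.9, 11.2 and 13.7 CPM in immobilized limbs and at 5.6, 4.95 and 4.71 CPM in control limbs, with no overlap, and it rose by 1.46 ± 0.39 (SE), adjusted p 0.0292. Tnfrsf11b, osteoprotegerin, the soluble receptor that captures RANKL, was at 16.4, 26.2 and 59.3 CPM against 14.9, 17.8 and 20.6 CPM and did not pass the test (0.76 ± 0.66 (SE), adjusted p 0.513). Its immobilized limb in mouse 4 lay among the control limbs, and that of mouse 6 stood above the rest. Csf1, the growth factor of the macrophage lineage, changed by 0.26 (adjusted p 0.602). With the muscle covariate, 8 of 18 osteoclast genes and 2 of 11 regulators were called higher, against 5.97% of all genes.

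Among 14 Wnt targets and feedback genes 5 rose and 0 fell, against 5.55% and 2.78% of all genes, with a median of 0.40. The list's mean level differed by 0.24, 0.23 and 1.06 in mice 4, 5 and 6. Notum, an enzyme that inactivates Wnt proteins, was at 8.78, 2.91 and 9.69 CPM against 2.21, 0.254 and 2.25 CPM and rose by 2.32 ± 0.36 (SE), adjusted p 0.00492. Wif1, a secreted Wnt inhibitor, was at 154, 127 and 193 CPM against 54.6, 53.5 and 67.9 CPM and rose by 1.42 ± 0.33 (SE), adjusted p 0.0164. Tcf7, a transcription factor of the pathway, was at 39.2, 27.1 and 74.5 CPM against 16.1, 13.4 and 14.7 CPM and rose by 1.55 ± 0.32 (SE), adjusted p 0.00967, and Apcdd1, a membrane inhibitor of the pathway, rose by 1.55 (adjusted p 0.0472). In Notum, Wif1 and Tcf7 the groups did not overlap. Axin2, a widely used target of the pathway, was at 3.82, 4.91 and 16.9 CPM against 9.16, 3.68 and 4.71 CPM, with mouse 4 lower in the immobilized limb, and did not pass the test (adjusted p 0.706). Notum, Wif1 and Apcdd1 are inhibitors of the pathway, and Dkk1, given among the osteocyte genes, is another. Apcdd1 was at 1.51 with the muscle covariate and did not pass (adjusted p 0.0998), and without mouse 6 the median of the list was -0.07.

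Of 31 BMP and TGF-beta signalling genes 7 rose and 0 fell, against 5.55% and 2.78% of all genes, with a median of 0.43. Bmp7, a ligand, was at 18.4, 12.3 and 68.2 CPM against 4.24, 4.57 and 8.8 CPM and rose by 2.21 ± 0.45 (SE), adjusted p 0.00895, with the highest value in the immobilized limb of mouse 6. Tgfbr1, a receptor of TGF-beta, was at 195, 123 and 100.2 CPM against 65.2, 49.2 and 64.1 CPM and rose by 1.18 ± 0.24 (SE), adjusted p 0.00809. Smad6, an inhibitory member of the pathway, was at 24.1, 15.8 and 35.9 CPM against 9.84, 6.22 and 9.41 CPM and rose by 1.53 ± 0.25 (SE), adjusted p 0.00643. All 3 genes were without overlap between the groups. Id3, a target of BMP signalling, was at 234, 147 and 237 CPM against 87.4, 84.6 and 84.4 CPM and rose by 1.24 ± 0.31 (SE), adjusted p 0.0221. In the IGF system 0 of 15 genes were called (edgeR), with a median of 0.16.

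The growth plate list was less even between the mice. Of 22 genes 3 rose and 0 fell, against 5.55% and 2.78% of all genes. The median was 1.09, and the mean level differed by 1.01 and 1.86 in mice 4 and 5 and by -0.07 in mouse 6. The 3 genes were Pth1r, the receptor of parathyroid hormone and its related protein, at 1.34 (adjusted p 0.0263), and the fibrillar collagen chains Col11a2 and Col11a1, at 1.99 (adjusted p 0.0342) and 2.51 (adjusted p 0.0349), which bone-forming cells express as well. With the muscle covariate Col11a2 stood at 2.11 and did not pass (adjusted p 0.0553). Col2a1, the main cartilage collagen, was at 373, 499.9 and 292 CPM against 83.3, 145 and 220.2 CPM and did not pass the test (adjusted p 0.397). Col10a1, the collagen of hypertrophic chondrocytes, was at 141, 48.6 and 2.09 CPM against 1.19, 3.81 and 3.99 CPM (adjusted p 0.311). Both collagens were higher in the immobilized limb of mice 4 and 5, and Col10a1 was lower there in mouse 6. The part of cartilage content in the other results was not tested.

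Among 12 genes of CXCL12-abundant stroma, the cells that support blood formation, 1 rose and 0 fell, with a median of 0.03. The shares of all genes were 5.55% and 2.78%. The 1 gene was Pdgfra, a growth factor receptor of many mesenchymal cells, at 1.45 ± 0.30 (SE), adjusted p 0.00948. Cxcl12 itself was at 1332, 1836 and 1244 CPM against 1262, 1805 and 1808 CPM (adjusted p 0.767). Of 18 fibrous tissue and tendon genes 2 rose, against 5.55% of all genes, with a median of 0.72 for the list. They were Col5a1 at 1.37 (adjusted p 0.0273) and Col6a1 at 1.19 (adjusted p 0.0443). Of 17 adipocyte genes 2 fell and 0 rose, against 2.78% and 5.55% of all genes, with a median of -0.66. Plin4, a lipid droplet protein, was at 9.26, 13.3 and 9.5 CPM against 145, 34.6 and 51.9 CPM and changed by -2.62 ± 0.74 (SE), adjusted p 0.0382. Cd36, a fatty acid transporter that muscle also expresses, changed by -0.99 ± 0.23 (SE), adjusted p 0.0158, and with the muscle covariate Plin4 and Cd36 stood at -2.23 and -0.74, neither of which passed (adjusted p 0.0945 and 0.0769). Adipoq, the hormone adiponectin of fat cells, was at 42.7, 47.2 and 51.7 CPM against 61.9, 65.6 and 71.8 CPM (adjusted p 0.447).

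Skeletal muscle genes had the lowest list median in the immobilized limb, but few passed the test. Of 38 sarcomere and skeletal muscle genes 4 fell and 0 rose, against 2.78% and 5.55% of all genes. The median log2 change was -2.95, and 34 had all immobilized limbs below all control limbs, against 14.9% of all genes. The list's mean level differed by -4.19, -1.20 and -2.57 in mice 4, 5 and 6. Acta1 (chr8:123891769-123894751), skeletal muscle actin, was at 316, 863 and 358 CPM in immobilized limbs and at 9438, 2504 and 2843 CPM in control limbs, a change of -3.12 ± 1.49 (SE), adjusted p 0.211. Myh4, a fast myosin heavy chain, was at 104, 396 and 153 CPM against 6198, 1025 and 2689 CPM, a change of -3.87 ± 1.71 (SE), adjusted p 0.176. Neither passed the test, although every immobilized limb was below every control limb, with the widest gap in mouse 4. Myh7, the slow myosin heavy chain, was at 6.58, 0.153 and 0.76 CPM against 15.1, 9.64 and 1.53 CPM, with overlap, and did not pass either (adjusted p 0.204).

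The 4 muscle genes that fell encode parts of the contractile apparatus. Myh2, a fast oxidative myosin heavy chain, was at 44.9, 90.1 and 22 CPM against 2309, 575 and 486 CPM and changed by -4.29 ± 1.28 (SE), adjusted p 0.0492. Actn2, an actinin of the Z disc, was at 19.2, 41.5 and 13.7 CPM against 630.4, 175 and 199.8 CPM and changed by -3.67 ± 0.99 (SE), adjusted p 0.0333. Myl2, a myosin light chain of slow and cardiac muscle, was at 11.3, 5.52 and 2.28 CPM against 139, 57.5 and 24.1 CPM and changed by -3.48 ± 0.93 (SE), adjusted p 0.0321. Myoz2, which binds calcineurin at the Z disc, was at 6.66, 12.7 and 4.37 CPM against 171, 54 and 37.5 CPM and changed by -3.30 ± 0.95 (SE), adjusted p 0.0418. In all 4 the groups did not overlap, and mouse 4 had the highest control value. In bulk tissue fewer cells of a type and less RNA per cell cannot be told apart, and the amount of muscle left on each bone was not measured. With the muscle list as a covariate 0 of the 38 genes were called (edgeR), as that model takes the list's own level out, and the list's median turned to 0.28.

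Promoter windows are shown for Myl2 (chr5:122092939-122093238, plus strand) and Myoz2 (chr3:123034938-123035237, minus strand), 2 of the 4 muscle genes that fell, as above from RefSeq on GRCm38.p6. Myl2 has a further window, at chr5:122092474-122092773, with 1 match. Capitals mark the palindrome CAGCTG, a form of the E-box that muscle basic helix-loop-helix factors are known to bind.
Myl2: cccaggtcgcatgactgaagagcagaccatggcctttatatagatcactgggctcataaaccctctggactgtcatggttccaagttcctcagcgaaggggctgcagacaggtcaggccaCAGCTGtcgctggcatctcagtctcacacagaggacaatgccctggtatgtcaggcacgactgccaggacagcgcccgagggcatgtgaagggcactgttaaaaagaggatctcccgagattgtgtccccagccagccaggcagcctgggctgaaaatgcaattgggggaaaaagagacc
Myoz2: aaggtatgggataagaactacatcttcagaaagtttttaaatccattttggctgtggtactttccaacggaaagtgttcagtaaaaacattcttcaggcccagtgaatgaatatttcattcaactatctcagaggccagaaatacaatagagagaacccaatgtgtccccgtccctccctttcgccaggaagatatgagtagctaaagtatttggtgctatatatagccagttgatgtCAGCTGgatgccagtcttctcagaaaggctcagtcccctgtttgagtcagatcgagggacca
The letters CAGCTG stood in 19 of 39 windows of muscle-list genes (31 of 38 genes matched), in 16.3% of all windows, in 16.7% of the windows of genes called lower and in 17.1% of those of genes called higher.

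Genes used as signs of muscle disuse did not rise as a group. Of 18 such genes 1 rose and 0 fell, a share close to the 5.55% of all genes called higher, with a median of -1.51. The 1 gene was Cdkn1a, a cell cycle inhibitor that many tissues express, at 1.20 ± 0.33 (SE), adjusted p 0.0348. Trim63, a ubiquitin ligase of muscle atrophy, was at 5.12, 9.5 and 4.56 CPM against 77.2, 25.9 and 20.9 CPM (adjusted p 0.0971), and Fbxo32, another such ligase, at 32.2, 44 and 30.6 CPM against 151, 52 and 50.7 CPM (adjusted p 0.0881). Both were lower in each immobilized limb, as the muscle list was. With the muscle covariate Trim63 and Fbxo32 stood at -0.05 and -0.29 (adjusted p 0.992 and 0.545), and the median of the 18 genes was -0.06.

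Genes of glucose breakdown fell. Of 20 glycolysis genes 12 fell and 0 rose, against 2.78% and 5.55% of all genes, with a median log2 change of -1.11, and 15 had all immobilized limbs below all control limbs, against 14.9% of all genes. The list's mean level differed by -2.16, -0.83 and -1.52 in mice 4, 5 and 6, the same order of mice as in the muscle list. Hk2, the hexokinase of muscle and other insulin-sensitive tissue, was at 24.5, 36 and 32.1 CPM against 189.7, 107 and 76.6 CPM and changed by -1.93 ± 0.34 (SE), adjusted p 0.00785. Gapdh was at 179, 266 and 178 CPM against 1112, 453 and 539 CPM and changed by -1.67 ± 0.32 (SE), adjusted p 0.00793. Its control limb in mouse 4 stood well above those in mice 5 and 6, whereas the 3 immobilized limbs were closer together. Tpi1, triose phosphate isomerase, was at 194, 248 and 190.0 CPM against 1271, 420.2 and 593 CPM and changed by -1.70 ± 0.35 (SE), adjusted p 0.00906. Ldha, a chain of lactate dehydrogenase, was at 445, 460.1 and 412 CPM against 1389, 691 and 787 CPM and changed by -1.05 ± 0.20 (SE), adjusted p 0.00797. Aldoa and Pfkm, the aldolase and phosphofructokinase forms that muscle uses, changed by -2.34 (adjusted p 0.0101) and -2.83 (adjusted p 0.0213). With the muscle covariate 6 of the 20 were called lower, against 1.43% of all genes, at a median of -0.80.

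Of 34 nuclear-encoded subunits of the respiratory chain 17 fell and 0 rose, against 2.78% and 5.55% of all genes, with a median of -0.74. In 31 of them all immobilized limbs lay below all control limbs, against 14.9% of all genes. Ndufv1, a subunit of complex I, was at 90.5, 82.3 and 81.2 CPM against 206, 127 and 129.9 CPM and changed by -0.83 ± 0.17 (SE), adjusted p 0.00809. Uqcrfs1, the Rieske protein of complex III, was at 86.4, 71.4 and 63.7 CPM against 217, 101 and 117 CPM and changed by -0.91 ± 0.20 (SE), adjusted p 0.0114. Uqcrc1, of the same complex, changed by -0.81 (adjusted p 0.0164) and Atp5a1, a subunit of the ATP synthase, by -0.74 (adjusted p 0.0146). The list's mean level differed by -1.63, -0.33 and -0.86, again furthest in mouse 4. With the muscle covariate 1 of the 34 was called lower, against 1.43% of all genes, at a median of -0.38.

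**Figure D3:**
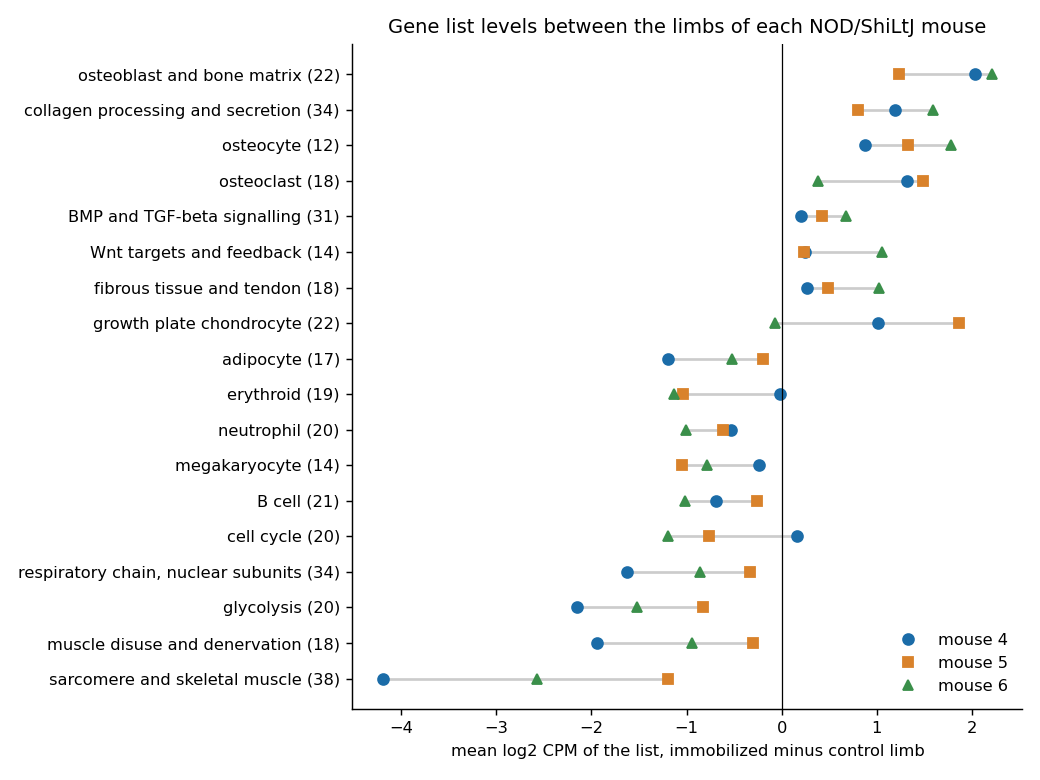
Mean log2 CPM of each gene list in the immobilized limb minus that in the control limb, 1 marker per NOD/ShiLtJ mouse, with the number of genes tested in brackets. Osteoblast, collagen processing, osteocyte and osteoclast lists lie above 0 in all 3 mice, and muscle, glycolysis and respiratory chain lists lie below 0 in all 3.

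Erythroid, neutrophil, B cell and megakaryocyte lists had medians below 0 with no gene called by edgeR. The medians were -0.77 for 19 erythroid genes, -0.66 for 20 neutrophil genes, -0.58 for 21 B cell genes and -0.76 for 14 megakaryocyte genes, and 11, 5, 9 and 9 of them had every immobilized limb below every control limb, against 14.9% of all genes. The erythroid list differed by -0.02 in mouse 4 and by -1.04 and -1.13 in mice 5 and 6, whereas the neutrophil list differed by -0.53 and -0.62 in mice 4 and 5 and was lowest in mouse 6. In the cell cycle list 0 of 20 genes were called, and the list differed by 0.16 in mouse 4 and by -0.77 and -1.20 in mice 5 and 6. Among 22 macrophage and monocyte genes Mertk, a receptor for the uptake of dying cells, rose by 0.61 (adjusted p 0.0462) while the list's median was -0.16, and among 9 plasma cell genes Prdm1, a transcription factor of plasma cells, T cells and osteoclasts, rose by 1.30 (adjusted p 0.0397) at a list median of -0.28. These single members stand beside 5.55% of all genes called higher. With the muscle covariate the changes of Mertk and Prdm1 were 0.60 and 1.22, and neither passed (adjusted p 0.0981 and 0.0982). Endothelial genes (0 of 19 called, median -0.15), interferon-stimulated genes (0 of 21, -0.02), MHC class II genes (0 of 10, -0.12) and cytosolic ribosomal proteins (0 of 35, -0.11) lay near the median of all genes.

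In the inflammation list 1 of 19 genes rose, a share close to the 5.55% of all genes called higher. It was Ccl9, a chemokine that osteoclasts also make, at 0.87 ± 0.26 (SE), adjusted p 0.0433. Of 20 immediate early genes, which respond to stimulation or handling of cells within minutes, Klf4 and Fosb rose and Nr4a1 fell. Klf4 was at 80.6, 59.6 and 137 CPM against 31.6, 35.1 and 37.8 CPM and changed by 1.33 ± 0.24 (SE), adjusted p 0.00785. Nr4a1 was at 14.4, 16.7 and 20.3 CPM against 76, 25.5 and 27.4 CPM and changed by -1.15 ± 0.35 (SE), adjusted p 0.0494. Their median was 0.19 and the members did not move together. Chac1, which degrades glutathione and is induced by the stress of unfolded protein, changed by -2.15 ± 0.48 (SE), adjusted p 0.0141. Zbtb16, a target of glucocorticoids, changed by -1.11 ± 0.31 (SE), adjusted p 0.0357, 1 of 13 genes called in that list. With the muscle covariate Klf4 passed, whereas Ccl9 (0.86, adjusted p 0.0922), Fosb (2.56, 0.0556), Nr4a1 (-0.63, 0.247), Chac1 (-1.53, 0.0691) and Zbtb16 (-0.91, 0.123) did not. In the circadian clock list 0 of 16 genes were called, and in the hypoxia list 2 of 16 fell. These counts, and those of the immediate early and glucocorticoid lists, stand beside 5.55% of all genes called higher and 2.78% called lower.

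The largest rises by the fixed rule (at least 1 CPM on average) were of genes at low levels in the control limb. Car12, a membrane carbonic anhydrase, was at 98.3, 55.5 and 91 CPM against 1.19, 4.44 and 5.42 CPM and rose by 4.46 ± 1.02 (SE), adjusted p 0.0161. Gal, the neuropeptide galanin, was at 9.67, 2.15 and 6.46 CPM against 0.17, 0.254 and 0.512 CPM and rose by 4.02 ± 0.69 (SE), adjusted p 0.00714. Panx3, a channel protein of osteoblasts and hypertrophic chondrocytes, was at 137, 124 and 67.7 CPM against 5.6, 5.96 and 9.72 CPM and rose by 3.89 ± 0.94 (SE), adjusted p 0.0208. None of these 3 overlapped between the groups. Bcan, a proteoglycan best known from brain matrix, was at 36, 15.2 and 69 CPM against 1.53, 1.9 and 4.3 CPM and rose by 3.84 ± 0.59 (SE), adjusted p 0.00492. BC021891 rose by 4.02 and Tmem151a, a membrane protein, by 3.55 (adjusted p 0.0102 and 0.0139).

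Tcfl5, Jakmip3 and Nell1 had 1, 1 and 3 counts in all 3 control limbs together, so their fitted changes are not given. Tcfl5, a helix-loop-helix factor known from testis, had 95 counts in the immobilized limbs (5.85, 2.3 and 1.52 CPM), a ratio of 92.9 with a 95% counting interval of 16.3 to 3706 (exact Clopper-Pearson). Nell1, a secreted protein that promotes bone formation, had 53 counts (2.03, 2.45 and 2.28 CPM), a ratio of 17.3 with an interval of 5.60 to 86.4. Jakmip3 had 37 counts (0.325, 0.766 and 5.32 CPM), most of them in mouse 6, and a ratio of 36.2 with an interval of 6.10 to 1466. The intervals cover counting error only. Tcfl5, Nell1 and Jakmip3 were called by edgeR at adjusted p 0.0202, 0.0161 and 0.0324.

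Several of the largest falls were of genes known from muscle. Fbp2, the muscle form of fructose bisphosphatase, was at 0.244, 0.46 and 0 CPM against 22.9, 4.57 and 10.5 CPM and changed by -5.56 ± 1.46 (SE), adjusted p 0.0309. Ckmt2, the creatine kinase of muscle mitochondria, was at 12.6, 23.1 and 3.99 CPM against 668, 153 and 230.3 CPM and changed by -4.72 ± 1.31 (SE), adjusted p 0.0377. Fgf6, a growth factor of muscle, was at 0.163, 0.153 and 0.19 CPM against 5.77, 2.92 and 2.15 CPM and changed by -4.37 ± 1.04 (SE), adjusted p 0.0197. In each of these the groups did not overlap and mouse 4 had the highest control value. Lbx1, a homeobox factor of muscle precursors, changed by -3.89, and Ddo, which oxidizes D-aspartate, by -3.97 (adjusted p 0.0359 and 0.0319). Gbp10, a guanylate-binding GTPase with near-identical relatives, changed by -4.47 (adjusted p 0.013). Lbx1, Ddo and Gbp10 had only 8, 11 and 9 counts in the immobilized limbs together, against 134, 175 and 126 in the control limbs. Mettl21e, a methyltransferase, and Bche, butyrylcholinesterase, had 2 and 3 counts in the immobilized limbs against 56 and 51 in the control limbs. These and Myh2 were among the 10 largest falls, and none of the 10 passed the test with the muscle covariate, whose adjusted p ran from 0.127 to 0.972.

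The 5 rises and 5 falls of smallest p are given next. Rab11fip4, an adaptor of recycling endosomes, was at 75.6, 61.5 and 117 CPM against 24.9, 27.9 and 37.1 CPM and rose by 1.46 ± 0.17 (SE), adjusted p 0.00132. Fam46a, which encodes a poly(A) polymerase active in bone-forming cells, was at 278, 166 and 362 CPM against 53.3, 65 and 85.4 CPM and rose by 1.94 ± 0.28 (SE), adjusted p 0.00471. Ankrd6, a regulator of Wnt signalling, was at 29.1, 18.5 and 49.98 CPM against 7.64, 6.85 and 11.4 CPM and rose by 1.84 ± 0.25 (SE), adjusted p 0.00471. The 3 genes were without overlap between the groups. Sardh, the mitochondrial sarcosine dehydrogenase, and Csnk1g3, a casein kinase, rose by 1.34 and 1.15 (adjusted p 0.00471 and 0.00471). Among the falls, Pfkfb1, a regulator of glycolysis in liver and muscle, was at 4.88, 5.67 and 2.66 CPM against 44.5, 11.9 and 18.9 CPM and changed by -2.38 ± 0.36 (SE), adjusted p 0.00471. Hsph1, a heat shock protein, was at 27.5, 27.1 and 22.2 CPM against 63, 73.5 and 50.4 CPM and changed by -1.27 ± 0.20 (SE), adjusted p 0.00514. Egln3, an oxygen-sensing prolyl hydroxylase, was at 8.78, 10.4 and 7.22 CPM against 44.5, 21.2 and 24.3 CPM and changed by -1.71 ± 0.29 (SE), adjusted p 0.00714. Hsph1 differed from the muscle pattern in that its highest control value was in mouse 5. Lrig1, a membrane regulator of growth factor receptors, and Lrrc20, a leucine-rich repeat protein, changed by -2.04 and -1.49 (adjusted p 0.00714 and 0.00785).

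Genes called in NOD/ShiLtJ were then read in the other strains, whose effects share no library with the NOD/ShiLtJ comparison. The mean effect of the other 7 strains was called in 280 genes (1.66% of those tested), 184 higher (1.09%) and 96 lower (0.569%). Of these, 65 were called in the same direction in NOD/ShiLtJ, which is 23.2% of the 280 and 4.62% of the 1407, and 1 was called in the opposite direction. The single A/J pair weighs as much in that mean as 3 pairs of another strain. Without A/J the mean of the other 6 strains was called in 1514 genes (8.97%), 6.17% of all genes being higher and 2.8% lower. Of the 1514, 495 were called in the same direction in NOD/ShiLtJ (35.2% of the NOD/ShiLtJ genes and 32.7% of those of the 6 strains), 460 of them higher and 35 lower. Of the 937 genes that rose in NOD/ShiLtJ, 878 lay above 0 in the mean of those 6 strains (93.7%, against 50.3% of all genes), and of the 470 that fell 385 lay below 0 (81.9%, against 49.7%). Their medians there were 0.30 and -0.11.

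**Figure D4:**
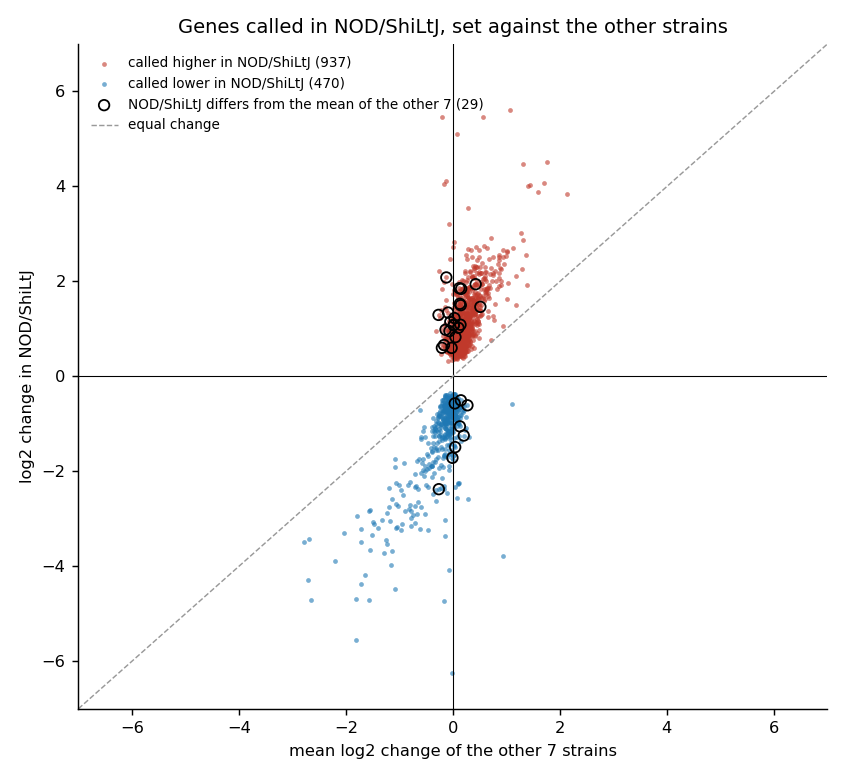
Log2 change of the 1407 genes called in NOD/ShiLtJ (y axis) against the mean log2 change of the other 7 strains (x axis). Circles mark the 29 genes whose change differed between NOD/ShiLtJ and that mean at an FDR of 0.05, and most points lie closer to 0 on the x axis than on the y axis; the NOD/ShiLtJ values chose these genes and the others did not.

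The size of the effect in NOD/ShiLtJ was tested against the mean of the other 7 strains directly. By this test 29 genes differed (0.172% of those tested), 21 towards higher (0.124%) and 8 towards lower (0.0474%), and all 29 were among the genes called in NOD/ShiLtJ. Ppm1e, a protein phosphatase, was at 44.2, 29 and 50.2 CPM against 5.6, 11.2 and 12.6 CPM in NOD/ShiLtJ, a change of 2.08, against -0.12 in the mean of the others, and the difference was 2.21 ± 0.35 (SE). For Arhgap42, a GTPase activating protein, the difference was 1.74 ± 0.33, for Ankrd6 1.69 ± 0.27, for Cd40, a receptor of antigen-presenting cells, 1.56 ± 0.29 and for Fam46a 1.52 ± 0.30. The differences towards lower were led by Pfkfb1 (-2.11 ± 0.38), Egln3 (-1.71 ± 0.31), Got1, an aspartate aminotransferase (-1.53 ± 0.29), Slc16a3, a lactate transporter (-1.45 ± 0.28), and Ldha (-1.18 ± 0.22). Their changes in the mean of the other strains were -0.26, -0.01, 0.04, 0.20 and 0.13. Smad6, given among the BMP genes, also differed (1.40 ± 0.28). With A/J left out of the mean 0 genes passed (0% of those tested; edgeR, 2486 at an unadjusted p under 0.05), so that the 29 calls depended on the single A/J pair, and the difference for Ppm1e was then 1.97 at an adjusted p of 0.0739. The count was also 0 without NOD/ShiLtJ mouse 4, 1 without mouse 6, 221 without mouse 5 and 652 without NZO/HlLtJ mouse 5. It was 2 without WSB/EiJ mouse 4 or mouse 5, and 4, 3 and 4 without C57BL/6J mouse 1, 4 or 6. The count of calls thus changed with single mice of several strains and not only with the A/J pair.

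Lists that were high in NOD/ShiLtJ were high in some of the other strains. The median of the osteoblast list was 2.01 in NOD/ShiLtJ, 2.71 in CAST/EiJ, 1.06 in PWK/PhJ, 0.66 in NZO/HlLtJ, 0.61 in 129S1/SvImJ, 0.34 in C57BL/6J, -0.07 in WSB/EiJ and -2.03 in the A/J pair. Of its 22 genes 17 were called higher in the mean of 6 strains without A/J, against 6.17% of all genes. Its median there was 0.93, so the rise of this list was not found in NOD/ShiLtJ alone. The osteocyte median was 1.42 in NOD/ShiLtJ, 1.20 in CAST/EiJ and between -0.65 and 0.63 in the other 6. The osteoclast median was 1.03 in NOD/ShiLtJ and between -0.03 and 0.62 in the other 7. In the mean of 6 strains without A/J, 7 of 18 osteoclast genes were called higher and 0 lower, at a median of 0.25. The collagen processing median was 1.32 in NOD/ShiLtJ, 1.79 in CAST/EiJ and between -1.25 and 0.95 in the other 6. In that mean of 6 strains 24 of its 34 genes were called higher and 1 lower. The shares of all genes there were 6.17% higher and 2.8% lower. For glycolysis the median was -1.11 in NOD/ShiLtJ and between -0.33 and 0.69 in the others. For the respiratory chain it was -0.74 against -0.22 to 0.14. No test was made of a list between strains.

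**Figure D5:**
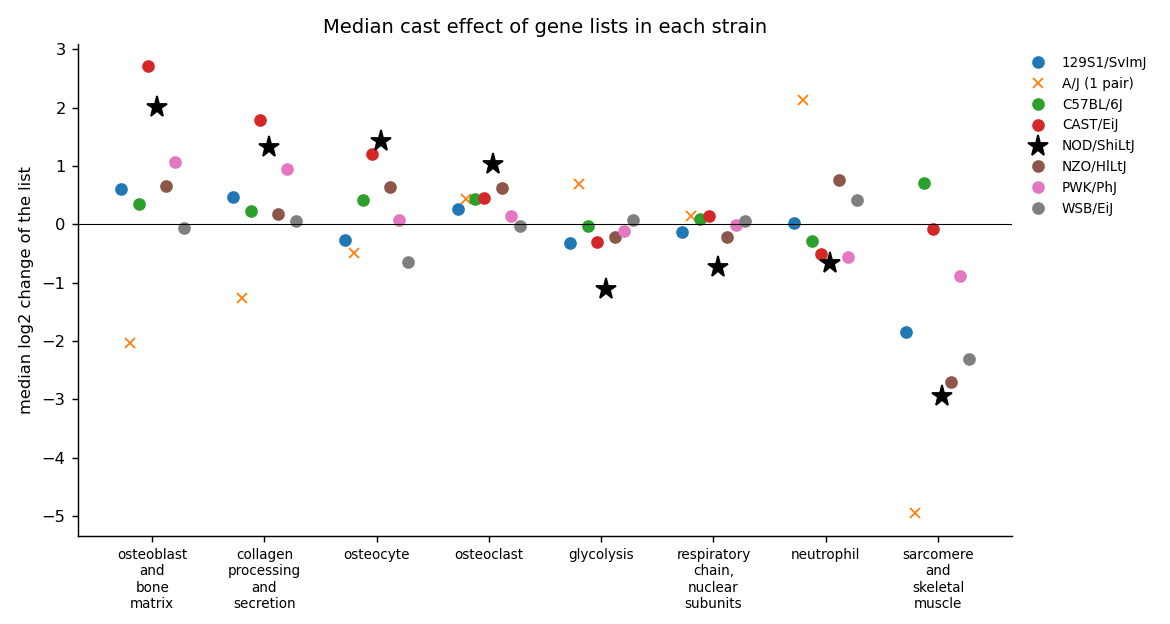
Median log2 change (immobilized over control) of 8 gene lists in each of 8 strains, with NOD/ShiLtJ as a star and the single A/J pair as a cross. NOD/ShiLtJ lies below CAST/EiJ and above the other 6 strains for the osteoblast list and is lowest for glycolysis and the respiratory chain.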

How the data were processed

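The authors deposited raw counts of reads for each gene in 1 table of 48 libraries and 32544 gene rows. featureCounts, DESeq2 and mm10 are named in the submitters' processing notes. No aligner, annotation or strand setting is given there or in the labels, so reads of overlapping genes on opposite strands may not be told apart, and reads of NOD/ShiLtJ were assigned against a C57BL/6J-derived genome. Dates stand in place of gene names in 27 rows, which were not renamed. Gene coordinates come from GENCODE M21 on GRCm38, which held the symbols of 31374 rows.

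Samples were grouped by the strain and limb in their labels and paired by mouse number, because the series design states that each mouse gave both limbs. Within the 3 NOD/ShiLtJ mice the deviations of the limbs from their group means correlated at -0.12, 0.02 and -0.06 across genes. Between limbs of different mice they correlated at -0.08 to 0.10, so limbs of the same mouse were no more alike by this measure. Totals were 5253408 to 14744056 counts in 46 libraries. A/J mice 2 and 5 were left out because their control libraries were close to empty (2335 and 50 counts), which left 44 libraries of 22 mice.

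The robust quasi-likelihood F test of edgeR 4.0.16 (R 4.3.3) was used with filterByExpr, TMM scaling and a Benjamini-Hochberg FDR of 0.05. The single model held each mouse as a block and the limb effect of each strain, so all strains share the estimate of spread and the lone A/J pair is assumed to vary as the others do. CPM are the deposited counts scaled by TMM, with a prior count of 2 for log2 differences within a mouse. The scripts were tested on simulated data. Alternatives were no mouse block, all 48 libraries, RLE scaling, no and stricter low-count filters, DESeq2 1.42.0, limma-voom (limma 3.58.1), a muscle covariate, the mean without A/J, NOD/ShiLtJ alone and leaving out each mouse.

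Genes named are the 10 largest changes each way among genes called, moving the same way in all 3 mice and averaging at least 1 CPM; the 5 smallest p each way; the 5 largest differences from the other strains each way; up to 4 called members of smallest p per list; and 11 genes named whatever their values. A few genes that the rule names are not reported here. Other genes named (Col1a2, Ibsp, Sparc, Alpl, Dmp1, Spp1, Mepe, Mmp9, Nfatc1, Csf1, Axin2, Serpinh1, Lox, P4hb, Col2a1, Col10a1, Adipoq, Cxcl12, Aldoa, Pfkm, Trim63 and Fbxo32) were chosen after their values were seen. The members and lists were chosen with earlier results of these data known, and lists are described by counts and medians with no test.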

Additional observations from a re-analysis of the deposited data

Results flagged for a closer look

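The cast effect in NOD/ShiLtJ differed from the mean effect of the other 7 strains in 29 genes by edgeR's test of the difference itself. The 5 largest differences towards higher were in Ppm1e (2.21 on the log2 scale), Arhgap42 (1.74), Ankrd6 (1.69), Cd40 (1.56) and Fam46a (1.52). Towards lower they were in Pfkfb1 (-2.11), Egln3 (-1.71), Got1 (-1.53), Slc16a3 (-1.45) and Ldha (-1.18). Each of the 10 genes moved the same way in all 3 NOD/ShiLtJ mice. None of the 10 passed once the A/J pair was left out of the mean. In that pair Ppm1e changed by -1.56 and Ldha by 0.80.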

How the results depend on the processing

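The NOD/ShiLtJ count of 1407 was 1059 with no replicate block, of which 913 were among the 1407, and 1455 with all 48 libraries, 1382 with RLE scaling, 938 without a low-count filter, 1533 with a stricter one, 1914 with DESeq2, 1880 with limma-voom, 1249 with the muscle covariate (822 shared) and 397 from NOD/ShiLtJ alone. Leaving out 1 mouse gave 0 to 1787 genes, and the lowest values came from leaving out NOD/ShiLtJ mouse 4 (0) or 6 (2). The count of 29 genes differing from the other strains was 26 with no replicate block, 62 with the stricter filter, 776 with DESeq2, 155 with limma-voom, 139 with the muscle covariate and 0 without A/J in the mean. Leaving out 1 mouse gave 0 to 652, the highest without NZO/HlLtJ mouse 5, and moved the count by over 1.5 times for every mouse but 129S1/SvImJ mouse 6 and CAST/EiJ mouse 2. The count of 280 for the mean of the other 7 strains was 132 without a filter, 962 with DESeq2 and 1514 without A/J, and leaving out 1 mouse gave 130 to 1557, the extremes without C57BL/6J mouse 6 and the A/J mouse. The median of all genes stayed within 0.05 of 0 under every scaling and tool tried.

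Directions turned in a few values. Acta1 went to 0.40 and the muscle list to 0.28 with the muscle covariate, which is built from that list. The CXCL12-abundant stroma list, at a median of 0.03, went to -0.14 with that covariate. Leaving out 1 NOD/ShiLtJ mouse moved this list from -0.11 (without mouse 4) and -0.05 (without mouse 5) to 0.20, the Wnt list from -0.0661 (without mouse 6) to 0.74, the hypoxia list from -0.56 to 0.0324 (without mouse 4), Axin2 from -0.46 (without mouse 6) to 1.17 and Cxcl12 from -0.26 to 0.0514 (without mouse 6). For these the cause was not tested. With 3 pairs, depth of 6312336 to 12959552 counts and an unequal muscle share, genes at a few counts per library are the least certain.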
